A study of Mus musculus with 6 samples.

Results

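Irf8, Spi1, Gfi1, Irf4, Irf5, Zeb2, Id2 and Tcf4 encode transcription regulators that steer blood progenitors towards or away from the myeloid fates. These 8 genes were taken by their symbols from the 34745 genes counted in hematopoietic stem cells (HSCs) with and without Med23, and each symbol stood for 1 identifier. They were chosen with the difference between KO and WT in these same libraries already known. Their values in KO and WT are therefore given as a description, and nothing is supported with them or with the counts of factors past a threshold given further on. Med23 is a subunit of Mediator, the complex that links DNA-bound transcription factors to RNA polymerase II.

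Bulk RNA-seq covered 3 WT and 3 KO samples of HSCs, sorted as CD150+CD34-CD48- LSK cells from the bone marrow of adult C57BL/6 mice. LSK cells lack lineage markers and carry Sca1 and cKit. Mice of both groups carried floxed Med23 alleles. WT mice, labelled WT(Med23floxp/flowp), had no Cre, and KO mice, labelled KO(Mx1-cre;Med23floxp/flowp), carried the Mx1-cre transgene, which is induced by interferon and in the study's methods by injection of poly(I:C). Mx1-cre is not restricted to HSCs, so Med23 can be deleted in other cells of the same animal. For its blood counts the study dates the sampling of both WT and KO mice from poly(I:C) administration. Whether the WT mice of these libraries also received poly(I:C), and how long before the sort, is not stated in the sources used here. Neither is whether each library came from a separate animal, so that the errors below measure the spread between these libraries.

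IRF8 and the ETS factor PU.1, the product of Spi1, bind DNA together at composite sites and switch on genes of monocytes and dendritic cells, while IRF8 holds back the neutrophil program. Gfi1 is a zinc finger repressor that favours neutrophils over monocytes and opposes PU.1. In dendritic cells the E protein Tcf4 maintains the plasmacytoid fate, Id2 binds E proteins and keeps them off DNA, and Zeb2 represses Id2. Irf4 and Irf5 are relatives of Irf8 that act in dendritic cells, B cells and macrophages. In HSCs, a low level of several of these factors is a known feature of lineage priming.

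Library totals were 4750410, 8131344 and 3537269 reads on genes for WT and 4760545, 5281232 and 5132601 for KO. Here and below, values of a group stand in the order of replicates 1, 2 and 3. They are CPM, which are counts scaled to a common library size and composition, or FPKM, which are counts over gene length and the plain library total, so that close libraries can stand in another order on the other scale. The smallest signal treated as detected, 3 counts, corresponded to between 0.369 and 0.927 CPM depending on the library. No molecular identifiers are described, so this floor covers counting error only. Libraries numbered 3 stood apart in both groups. The Y-linked genes Ddx3y, Kdm5d, Eif2s3y and Uty together had 1 count in the library labelled WT replicate 3 and none in KO replicate 3, and between 1036 and 1855 counts in the other libraries. Xist had 4819 and 7853 counts in the libraries numbered 3 and at most 111 in the others. Genes Gm26917 and Gm42418, which collect ribosomal RNA reads, took 18.1% of the counts in the library labelled WT replicate 3, 12.0% in KO replicate 3 and between 6.11 and 10.5% in the others.

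Med23 itself was read first, because it is the gene deleted in KO. Med23 (ENSMUSG00000019984, GRCm38 chromosome 10 from 24869986 to 24913681, plus strand) was at 47.6, 70.8 and 24.1 CPM in WT and at 31.6, 29.8 and 36.8 CPM in KO. No KO library had less Med23 than the library labelled WT replicate 3. Its log2 fold change, KO over WT, was -0.54 (standard error (SE) 0.42), -0.85 without that library and -0.13 without WT replicate 2. A count covers the whole gene, so that exons removed by Cre are not told from those that remain. The level of Med23 alone therefore cannot check a label. Because the library labelled WT replicate 3 had the least Med23, the log2 fold changes of the factors are also given without it. So are those of the list genes named because their groups did not overlap. At H19 and Ddx4 that library lay on the side of its label. H19 had 358, 470 and 505 counts in WT and 0 in every KO library. Ddx4 had 10, 16 and 14 counts in WT and 177, 262 and 254 in KO. Both genes were named after their values were seen. Both passed the adjusted threshold with edgeR in the fit that counts that library as WT, so they cannot check its label. Whether its label is right was not tested.

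HSC genes were abundant in every library. The 12 HSC markers, led by Kit, summed to between 2457 and 2950 CPM, and none of them was at 0 in all libraries. Their steady sum covered differences in both directions. Kit, Ly6a and Hlf were below WT in every KO library, with log2 fold changes of -0.38 (SE 0.18), -0.78 (SE 0.27) and -0.81 (SE 0.25). Mecom and Cd34 were above WT in every KO library, at 0.61 (SE 0.23) and 0.40 (SE 0.20). None of them passed the adjusted threshold, and the lowest adjusted p with edgeR was 0.53, for Hlf. Of all genes tested, 6.14% were below WT in every KO library and 6.25% above. These shares also stand beside the marker lists further on. The list also holds 2 genes whose proteins were gated out. Cd48, whose protein was gated out, had 10 and 28 counts in WT replicates 1 and 2 and none in the other libraries. Cd34 was counted in all 6 libraries, at between 296 and 520 CPM, although cells with CD34 protein on their surface had been sorted away.

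Irf8 (ENSMUSG00000041515, chromosome 8 from 120736358 to 120756694, plus strand) had the largest log2 fold change among the 7 factors with enough counts for a fit. It was at 3.49, 23.6 and 5.25 CPM in WT, from 17, 192 and 17 counts, and at 89.1, 34.0 and 54.0 CPM in KO, from 440, 187 and 267 counts. Every KO library was above every WT library, but WT replicate 2 came close to KO replicate 2 and KO replicate 1 stood highest. The mean was 10.8 ± 11.1 CPM in WT and 59.1 ± 27.9 CPM in KO (SD, n = 3 in each group), and the log2 fold change was 2.41 (SE 0.69). Leaving out the library labelled WT replicate 3 gave 2.10, and leaving out WT replicate 2 gave 3.76. With replicates 1 and 2 of each group only, it was 2.17. In bulk RNA, more cells with a transcript and more transcript per cell cannot be told apart. The annotation places Irf8 inside the span of Gm20388 on the same strand, but the exons of the 2 genes share no base and Gm20388 had 0 counts in all libraries.

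**Figure D1:**
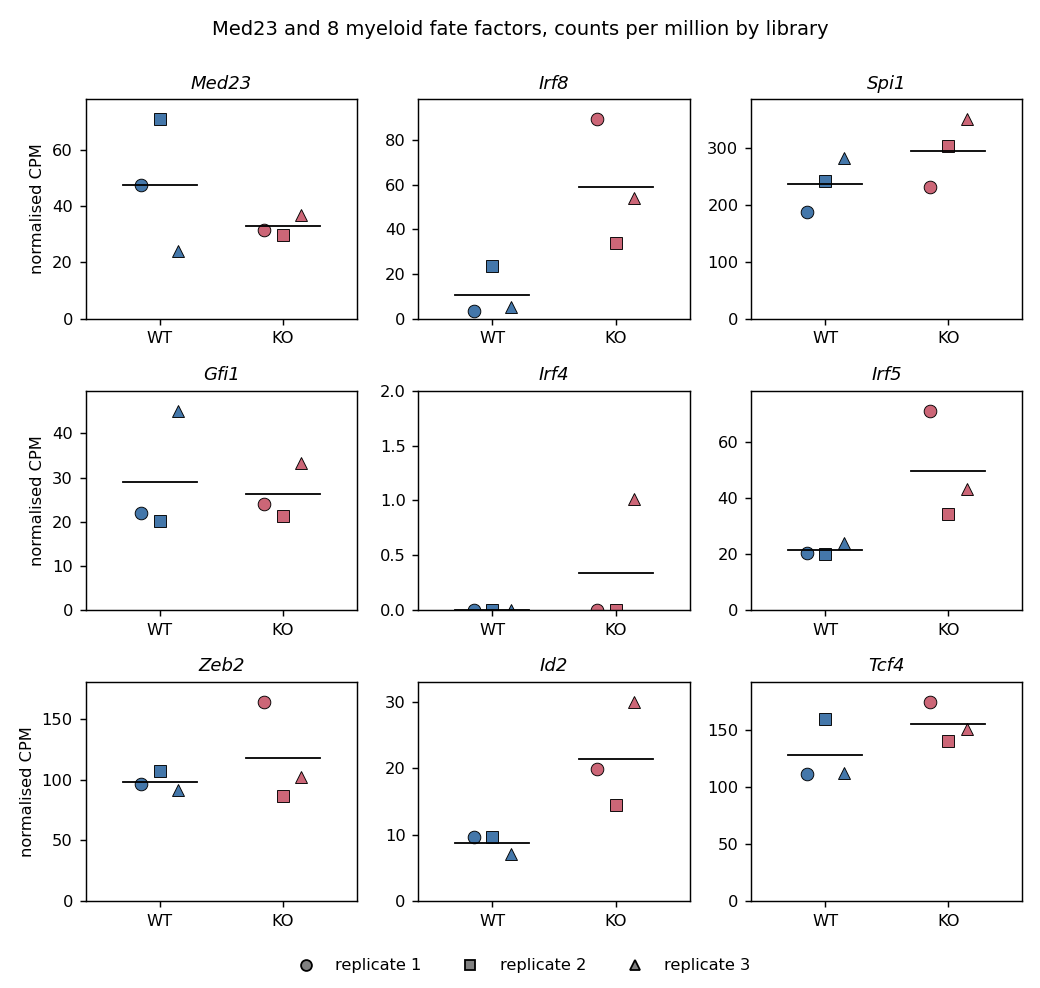
Normalised CPM (vertical axis, linear, each panel with its own scale from 0) of Med23 and the 8 factors in 3 WT (blue) and 3 KO (red) libraries. Each symbol is 1 library, its shape gives the replicate number and the line is the group mean; Irf8, Irf5 and Id2 have every KO library above every WT library, and the groups overlap for the others.

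The sequence around the start of Irf8 is shown because it is the factor with the largest log2 fold change, and that of Irf5 because it is a relative whose groups did not overlap either. Each window runs from 250 bases before to 50 bases after an annotated start, 5′ to 3′ on the strand of the gene, and was taken from RefSeq on GRCm38.p6. Irf8 lies at chr8:120736108-120736407 on the plus strand and Irf5 at chr6:29526375-29526674 on the plus strand. In each, 50 bases lie in annotated exons of the gene and the rest upstream. Capitals mark matches to the searched letters, and Irf5 has none. The window of Id2 held none either, with 211 of its bases in annotated exons.
Irf8: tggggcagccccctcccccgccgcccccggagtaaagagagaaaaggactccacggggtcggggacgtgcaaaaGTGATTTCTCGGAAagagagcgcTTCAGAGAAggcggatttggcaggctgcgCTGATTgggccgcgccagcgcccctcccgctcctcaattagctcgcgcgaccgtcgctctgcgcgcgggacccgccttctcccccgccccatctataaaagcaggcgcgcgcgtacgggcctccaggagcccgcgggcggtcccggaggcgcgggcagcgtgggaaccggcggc
Irf5: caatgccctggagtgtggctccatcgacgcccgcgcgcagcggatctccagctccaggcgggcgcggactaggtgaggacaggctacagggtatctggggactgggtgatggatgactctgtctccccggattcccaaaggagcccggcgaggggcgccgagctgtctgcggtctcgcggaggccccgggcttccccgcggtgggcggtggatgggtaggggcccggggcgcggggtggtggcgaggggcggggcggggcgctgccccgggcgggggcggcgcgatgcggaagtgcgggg

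The letters searched, on both strands, were GGAANNGAA (composite ETS and IRF element), GAAANNGAA (interferon response element), GAGGAAGT (PU.1), TTCNNNGAA (STAT), CAGGTG (Zeb2 and E proteins), and AATCAC and AATCAG (Gfi1). Irf8 held 2 matches to the STAT letters, from base -171 to -163 and from -153 to -145 relative to the start. It also held AATCAC, read on the opposite strand, from -176 to -171, sharing 1 base with the first STAT match, and AATCAG on the opposite strand from -124 to -119. Among all 32851 promoter windows of 300 bases, 8.3% held the STAT letters, 10.4% AATCAC and 14.8% AATCAG. Windows on chromosome 18, that of Tcf4, were left out for the factors but not for the shares of all windows. The search covered 11 windows of 6 of the 8 genes, with none of Spi1 or Tcf4. STAT letters were found in 3 of these, 1 of Irf8 and 2 overlapping ones of Zeb2. CAGGTG was found in 2, the second start of Irf8 and 1 of Gfi1, against 20.2% of all windows. None held the composite element, the interferon response element or the PU.1 letters, which 8.24, 8.56 and 3.2% of all windows held. These matches describe the letters only and were not tested for binding.

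Irf5 (chromosome 6 from 29526625 to 29541871, plus strand), which in macrophages carries Toll-like receptor signals to cytokine genes, had a narrow range in WT. It was at 20.5, 20.2 and 24.1 CPM in WT and at 71.3, 34.2 and 43.3 CPM in KO. All KO libraries were above all WT libraries, and KO replicate 1 was again the highest. Its mean was 21.6 ± 2.19 CPM in WT and 49.6 ± 19.3 CPM in KO (SD, n = 3 each), with a log2 fold change of 1.20 (SE 0.39). This was 1.29 without the library labelled WT replicate 3 and 0.85 without KO replicate 1. Of the exon bases of Irf5, 14.1% are shared with Tnpo3 on the opposite strand, so its count is uncertain if reads were assigned without strand. Tnpo3 had a log2 fold change of 0.35 (SE 0.30).

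Irf4 (chromosome 13 from 30749226 to 30766976) was at or near 0. It had no count in 5 libraries and 5 counts in KO replicate 3, or 1.01 CPM, and did not pass the filter on low counts. No fold change is given for it.

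Spi1 (ENSMUSG00000002111, chromosome 2 from 91082390 to 91115756, plus strand) was abundant in both groups. It was at 187, 242 and 282 CPM in WT and at 232, 303 and 350 CPM in KO. The ranges overlapped, since KO replicate 1 lay below 2 of the WT libraries. Its log2 fold change was 0.31 (SE 0.23), and 0.46 without the library labelled WT replicate 3. On the length-normalised scale Spi1 in WT stood above 95.4% of the genes tested.

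Gfi1 (chromosome 5 from 107716657 to 107726036, minus strand) was at 21.9, 20.2 and 45.1 CPM in WT and at 24.1, 21.3 and 33.2 CPM in KO. Its groups overlapped, and the libraries numbered 3 were the highest of each group. The log2 fold change of Gfi1 was -0.14 (SE 0.44) and turned to 0.32 without the library labelled WT replicate 3. The antisense gene A430072P03Rik shares 3.17% of its exon bases.

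Id2 (chromosome 12 from 25093799 to 25097140, minus strand) was counted with few reads. It was at 9.64, 9.71 and 7.11 CPM in WT, from 47, 79 and 23 counts, and at 19.9, 14.6 and 29.9 CPM in KO, from 98, 80 and 148 counts. Every KO library was above every WT library, with KO replicate 3 the highest. The mean was 8.82 ± 1.48 CPM in WT and 21.5 ± 7.82 CPM in KO (SD, n = 3 each). Its log2 fold change was 1.28 (SE 0.51), 1.15 without the library labelled WT replicate 3 and 0.84 with replicates 1 and 2 of each group only.

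Tcf4 (chromosome 18 from 69343356 to 69689079), the E protein that Id2 can bind, was at 112, 160 and 112 CPM in WT and at 174, 141 and 151 CPM in KO. WT replicate 2 lay within the KO range, and the log2 fold change was 0.28 (SE 0.23). Zeb2 (chromosome 2 from 44983632 to 45117395, minus strand) was at 96.0, 107 and 91.5 CPM in WT and at 163, 86.4 and 102 CPM in KO. Only KO replicate 1 was above all WT libraries, and KO replicate 2 was below them. The log2 fold change of Zeb2 was 0.26 (SE 0.28), and -0.06 without KO replicate 1. Without the library labelled WT replicate 3 the log2 fold change was 0.20 for Tcf4 and 0.21 for Zeb2.

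KO libraries did not share 1 profile of these factors. KO replicate 1 had the highest value of all 6 libraries for Irf8, Irf5, Zeb2 and Tcf4, whereas KO replicate 3 had the highest for Spi1 and Id2 and was the only library with Irf4 counts. KO replicate 2 was the lowest KO library for Irf8, Irf5, Id2, Gfi1, Zeb2 and Tcf4. Among WT libraries, replicate 2 had the most Irf8, Zeb2, Tcf4 and, narrowly, Id2.

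**Figure D2:**
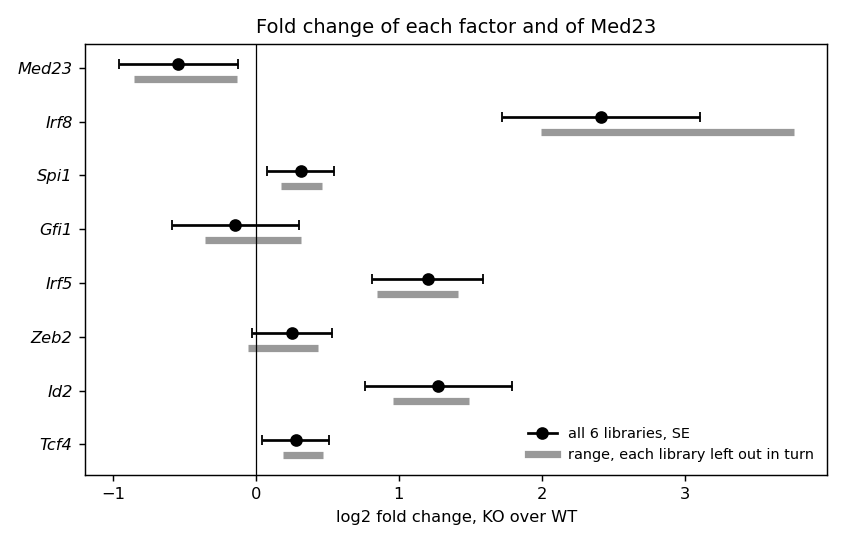
Log2 fold change of KO over WT (horizontal axis) for Med23 and the 7 factors that passed the filter, with black points for the estimates from all 6 libraries with their SE and grey bars for the range when each library was left out in turn. Irf8, Irf5 and Id2 lie furthest to the right, and the grey bars of Gfi1 and Zeb2 cross 0.

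Of the 8 genes, 7 passed the filter on low counts. Among them, 0 passed an adjusted p of 0.05 over all 12513 genes with edgeR's quasi-likelihood test, where 9 genes or 0.0719% of all tested did so. At an unadjusted p under 0.05 there were 3 of the factors (Irf8, Irf5 and Id2) and 715 of all genes tested. DESeq2 called 1 of the factors, Irf8, and 120 of 12500 genes, or 0.96%, and none of the limma fits called any of them. Every KO library was above every WT library for 3 of the factors and for 6.25% of all genes tested, and below for none of the factors and for 6.14% of all genes. Since the factors were chosen on this contrast, these shares are set side by side and nothing is read from them.

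Levels of different genes were compared in FPKM. In WT the order was Spi1, Id2, Irf5, Gfi1, Zeb2, Tcf4, Irf8 and Irf4, with means of 69.9 ± 10.4, 6.85 ± 1.50, 5.94 ± 0.27, 4.67 ± 1.93, 2.83 ± 0.35, 2.48 ± 0.59, 1.23 ± 1.30 and 0 FPKM (SD, n = 3). Spi1 stood far above Id2, with no overlap between libraries. Libraries of Id2 and Irf5, of Irf5 and Gfi1, of Zeb2 and Tcf4, and of Tcf4 and Irf8 overlapped, and none of these pairs differed by more than the larger SD. Nor did the mean of Gfi1 exceed that of Zeb2 by more than the SD of Gfi1, although their libraries did not overlap. In KO the order differed by 1 move, with Irf8 between Irf5 and Gfi1. Means there were 90.0 ± 15.4 FPKM for Spi1, 16.9 ± 5.43 for Id2, 14.2 ± 5.80 for Irf5, 6.91 ± 3.38 for Irf8, 4.40 ± 0.84 for Gfi1, 3.49 ± 1.28 for Zeb2, 3.11 ± 0.40 for Tcf4 and 0.067 ± 0.12 for Irf4. In KO the libraries of each gene from Id2 to Zeb2 overlapped those of the next in this order. The gap between Irf5 and Irf8 in KO, 7.29 FPKM, was beyond the larger SD of 5.80, and the others of these gaps were not. Irf8 stood above 12.3% of the genes tested in WT and above 50.1% in KO.

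**Figure D3:**
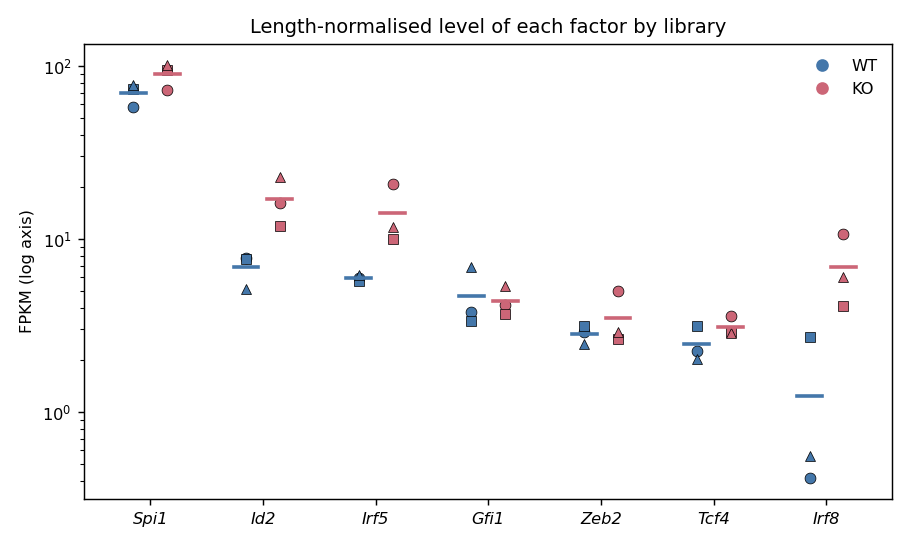
FPKM of 7 factors (vertical axis, logarithmic) in 3 WT (blue) and 3 KO (red) libraries, ordered by their WT mean, without Irf4, with circles, squares and triangles for replicates 1, 2 and 3 and bars for group means. Spi1 lies far above the rest, and Irf8 spans the widest range, from 0.413 to 10.7 FPKM.

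Ratios between factors in the same library, chosen after their values were seen, compare RNA levels of factors that act together or against each other. No share over other gene pairs was worked out, so nothing is read from these ratios. Spi1 over Irf8, in FPKM, was 141, 26.9 and 141 in WT and 6.82, 23.4 and 17.0 in KO. WT replicate 2 was close to KO replicate 2 in this ratio. Spi1 over Gfi1 was 15.5, 21.8 and 11.3 in WT and 17.4, 25.8 and 19.1 in KO, and the groups overlapped. Tcf4 over Id2 was 0.290, 0.412 and 0.397 in WT and 0.220, 0.242 and 0.127 in KO, so that each WT library was above each KO library. Id2 alone also separated the groups, while Tcf4 alone overlapped. Irf5 over Irf8 was 14.4, 2.09 and 11.2 in WT and 1.95, 2.46 and 1.96 in KO, so that Irf5 was above Irf8 in every library and WT replicate 2 lay within the KO range.

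The 5 tested genes whose profile over the 6 libraries was nearest to that of Irf8 were Il17rb, Pde4c, Gm42559, Kiss1r and Gm26631. Their root mean square differences from Irf8, on centred log2(CPM + 0.5) values, were 0.36, 0.38, 0.45, 0.52 and 0.55, against a median of 1.70 over all 12512 other genes. All 5 were scarce, with means between 4.03 and 6.62 CPM in KO and between 0.574 and 1.07 CPM in WT, and like Irf8 they were highest within WT in replicate 2. None passed the adjusted threshold. Among the factors, Id2 and Irf5 were nearest to Irf8, at 1.15 and 1.17, and Gfi1 was furthest, at 1.77.

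Other genes of the same pathways were read from lists. Over the 96 distinct genes of 9 lists, 78 were tested, 0 passed the adjusted threshold upwards and 1, Egr1, passed it downwards with edgeR's quasi-likelihood test. DESeq2 called 2 of them, Egr1 and Itgam, and so did limma on log2(FPKM + 1) over genes averaging at least 1 FPKM. Without that filter, or on log2(FPKM + 0.1), limma called Egr1 alone. The median log2 fold change of the 78 genes was 0.11, against -0.0054 over all genes tested. Every KO library was above every WT library for 8 of the 78, or 10.3%, against 6.25% of all genes tested. Every KO library was below for 5, where the share of all genes tested was 6.14%. The lists, like the factors, were written with earlier results of these data known. Their shares, here and by list below, are therefore set side by side and nothing is read from them. By list, the share above was 27.3% for PU.1 targets and 25% for PU.1 relatives and partners. It was 14.3% for Irf8 targets and 8.33% for monocyte and dendritic cell fate factors. In the other lists no gene was above. Egr1, an immediate early zinc finger factor of the monocyte lineage, was at 86.3, 72.1 and 102 CPM in WT and at 6.48, 6.01 and 2.83 CPM in KO. It fell in every KO library, with a log2 fold change of -4.08 (SE 0.42, adjusted p = 0.0043 with edgeR), and -3.95 without the library labelled WT replicate 3 (adjusted p = 0.018 with edgeR). That library, left out of this fit, had the highest Egr1 level of all 6, on the side of its label, although it had the least Med23.

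Among targets of PU.1, 11 of 18 genes were tested and none passed with edgeR, 2 were under an unadjusted p of 0.05, and DESeq2 and 1 of the 3 limma fits called 1, Itgam. The adjusted p of Itgam was 0.025 with limma on log2(FPKM + 1) over genes averaging at least 1 FPKM, 0.16 without that filter and 0.13 with limma on log2(FPKM + 0.1). The median log2 fold change was 0.35. Groups did not overlap for 3 of the 11 genes, each higher in KO, or 27.3%, against 6.25% of all genes tested. Fcgr1, an Fc receptor gene of the list chosen after its values were seen, had 0 counts in every WT library and 10, 6 and 43 in KO, and did not pass the filter on low counts. Itgam, which encodes the integrin CD11b of myeloid cells, was at 4.92, 0.737 and 12.1 CPM in WT and at 79.8, 79.2 and 73.7 CPM in KO, with a log2 fold change of 3.80 (SE 0.74, adjusted p = 0.18 with edgeR). Fcer1g and Tyrobp, adaptor chains of activating receptors, had log2 fold changes of 1.38 (SE 0.37, adjusted p = 0.41) and 1.34 (SE 0.82, adjusted p = 0.98). These log2 fold changes became 4.87 for Itgam, 1.50 for Fcer1g and 2.10 for Tyrobp once the library labelled WT replicate 3 was left out. Unlike Irf8, the level of Itgam was nearly equal in the 3 KO libraries. Mpo, Elane, Lyz2, Fcgr3 and Csf1r of this list are also among the progenitor markers below. The target with the highest level in WT, the lysozyme gene Lyz2, was at 365 FPKM in WT and 358 FPKM in KO.

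Among targets of Irf8, 7 of 12 genes were tested, none passed with edgeR, DESeq2 or limma, and none was under an unadjusted p of 0.05. Their median log2 fold change was 0.19. The highest level in WT was that of Cst3, the cystatin C gene, at 137 FPKM in WT and 162 FPKM in KO. Il12b and Nos2, which Irf8 induces in activated macrophages, had 0 counts in all libraries.

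Relatives and partners of PU.1 gave 12 tested genes of 14, none past the threshold with edgeR, DESeq2 or limma and none under an unadjusted p of 0.05, with a median of 0.12. Spic, an ETS relative of Spi1 needed by red pulp macrophages, was at 1.23, 4.30 and 6.49 CPM in WT and at 12.2, 7.28 and 20.8 CPM in KO (log2 fold change 1.75, SE 0.81, adjusted p = 0.90 from edgeR). Spib, another relative, had 0 counts throughout. Cbfb and Elf1 were also higher in every KO library, with log2 fold changes of 0.52 (SE 0.24) and 0.33 (SE 0.19), and Etv6, an ETS repressor that HSCs need, was lower in every KO library, at -0.44 (SE 0.20). Thus 3 of the 12 tested genes, or 25%, were above WT in every KO library, against 6.25% of all genes tested. The 1 gene below stands against 6.14% of all genes tested. Leaving out the library labelled WT replicate 3 gave 2.25 for Spic, 0.59 for Cbfb, 0.32 for Elf1 and -0.36 for Etv6. Cebpa, a factor of granulocyte and monocyte progenitors chosen after its values were seen, had 0, 1 and 0 counts in WT and 22, 19 and 7 in KO, too few for the filter. Jun, a partner of PU.1, and the ETS gene Fli1 shared the highest WT mean level of the list, at 96.3 ± 46.7 and 96.3 ± 9.46 FPKM (SD, n = 3). Jun ranged from 88.4 CPM in KO replicate 2 to 513 CPM in KO replicate 3.

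The other lists held few differences. All 6 other IRF genes were tested with a median of -0.26, and Irf2 was the most abundant of them in WT and lower in every KO library, from 88.6 to 76.9 FPKM with a log2 fold change of -0.25 (SE 0.19) and -0.23 without the library labelled WT replicate 3. The list of Gfi1 corepressors and its paralog, 6 genes all tested, had a median of 0.11, and their highest WT level was that of Hdac2, 32.7 FPKM. Of the 6 E protein, ID protein and Zeb1 genes, 4 were tested with a median of 0.19, led in WT by Tcf3 at 17.0 FPKM. Id3, chosen after its values were seen, had 15, 9 and 11 counts in WT but 0 in every KO library and did not pass the filter on low counts. Of 14 receptor and signalling genes 13 were tested, with a median of 0.13, and Csf2ra, a chain of the GM-CSF receptor, led them at 56.9 FPKM in WT and 54.3 FPKM in KO. In none of these 4 lists did a gene pass with edgeR, DESeq2 or limma, or reach an unadjusted p under 0.05.

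Among 16 monocyte and dendritic cell fate factors, 12 were tested with a median of 0.04, and Egr1 was the one that passed. Zbtb46, a factor of classical dendritic cells, was at 0.410, 6.88 and 10.2 CPM in WT and at 11.5, 15.8 and 11.1 CPM in KO (log2 fold change 1.15, SE 0.92). Its value rested on WT replicate 1, from 2 counts, and was 0.60 without that library and 1.78 without the library labelled WT replicate 3. Maf, a macrophage factor, was lower in every KO library, with a log2 fold change of -1.09 (SE 0.89) and -1.20 without the library labelled WT replicate 3. Neither passed, both with an adjusted p of 0.99 from edgeR. Cbfa2t3 was the most abundant in WT, at 30.3 FPKM. Batf3, which acts with Irf8 in dendritic cells, had 0 counts in all libraries.

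Interferon-stimulated genes were read because Irf8 answers to interferon gamma and the Cre transgene to interferon. All 16 were tested and none passed with edgeR, DESeq2 or limma, or had an unadjusted p under 0.05. The median log2 fold change was 0.0016. Bst2 had the highest WT level, 158 FPKM, and in CPM was lower in every KO library, with a log2 fold change of -0.39 (SE 0.24, adjusted p = 0.98 from edgeR) and -0.32 without the library labelled WT replicate 3.

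**Figure D4:**
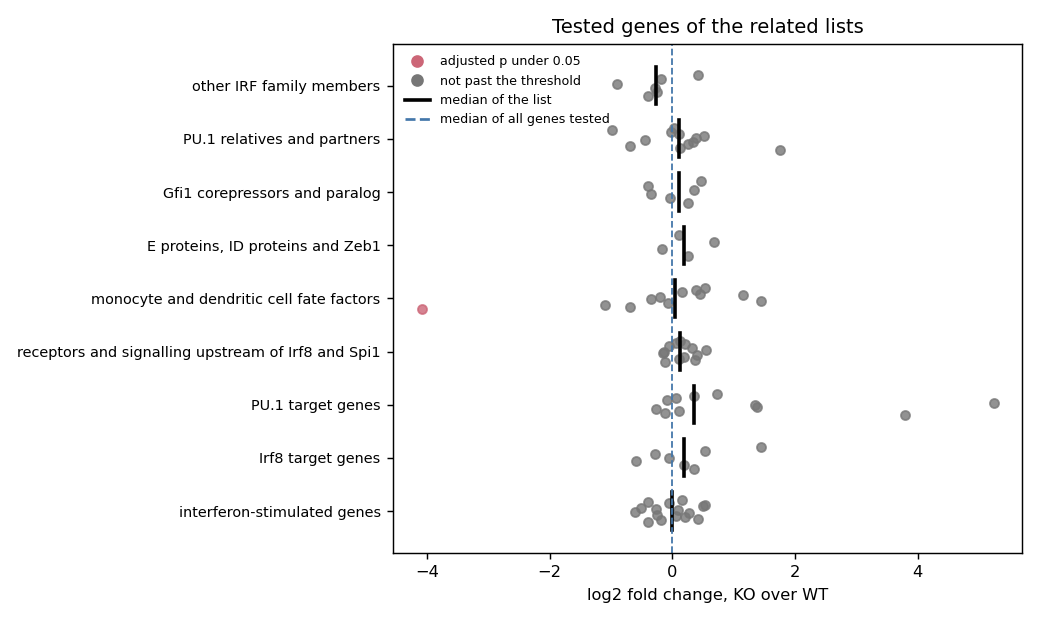
Log2 fold change of KO over WT (horizontal axis) for each tested gene of 9 lists, where grey points did not pass an adjusted p of 0.05, the red point, Egr1, did, black ticks are list medians and the dashed line is the median of all genes tested. List medians lie between -0.26 and 0.35, and single genes such as Itgam at 3.80 lie outside them.

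Markers of other cell types were summed in each library, since most of these factors are abundant in mature myeloid and lymphoid cells. The 9 granulocyte-monocyte progenitor markers summed to 485, 654 and 633 CPM in WT and to 718, 773 and 1058 CPM in KO, with Lyz2 the most abundant. Without Lyz2 these sums were 90.2, 151 and 112 CPM in WT and 308, 313 and 583 CPM in KO. Prtn3 made up most of that remainder and was the only gene of the list with every KO library above every WT library, with a log2 fold change of 1.63 (SE 0.25, adjusted p = 0.065 with edgeR). Mpo had 867 counts in KO replicate 3 and at most 23 in any other library. None of these markers was at 0 in all libraries, and Ly6c2 had 28 counts in WT replicate 2, 1 in KO replicate 3 and none in the others. KO replicate 1, the library with most Irf8, had 1503 counts of Prtn3, 14 of Mpo and 1 of Elane, and the sum was highest in KO replicate 3. The part of these cells in the values of the factors was not tested.

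The 10 dendritic cell markers summed to 851, 734 and 1131 CPM in WT and to 458, 692 and 1323 CPM in KO. Cd74 made up 86.2% of this, and Siglech, Ccr9, Ly6d and Itgax had 0 counts in all libraries. Zbtb46, also in this list, was above WT in every KO library as given above, and Bst2 was below. Clec9a had at most 9 counts in any library, Cd209a at most 4 and Xcr1 at most 2. KO replicate 1 had the lowest sum of all libraries, which was mostly Cd74. The 8 macrophage markers, led by Vcam1, summed to 7.79, 15.6 and 57.2 CPM in WT and to 29.6, 8.37 and 39.7 CPM in KO, and none of them was at 0 in all libraries. Adgre1 was the macrophage marker whose groups did not overlap, with 0 counts in every WT library and 2, 11 and 20 in KO, and Mrc1 had 47 counts in KO replicate 1 and none elsewhere. What part dendritic cells and macrophages had in the values was not tested.

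Neutrophil markers, 8 genes led by S100a9, summed to at most 11.5 CPM in any library, with Ltf and Mmp8 at 0. B cell markers summed to between 44.3 and 75.3 CPM, of which Cd79b made up 96.2%, and Pax5, Ms4a1 and Igll1 were at 0 among 8 genes. The 8 T and NK cell markers summed to between 16.8 and 46.4 CPM, 83.4% of it Nkg7, with Cd3e, Cd3d, Cd3g, Cd8a and Ncr1 at 0. The 10 megakaryocyte-erythroid markers, led by Itga2b and with none at 0 throughout, summed to between 176 and 295 CPM in WT and between 258 and 362 CPM in KO. Without Itga2b, 57.3% of the total, the sums overlapped, at 96.8, 99.4 and 189 CPM in WT and 103, 95.0 and 146 CPM in KO. Epor was below WT in every KO library, with a log2 fold change of -2.28 (SE 0.66, adjusted p = 0.48 with edgeR), and Gp9 was above, at 0.53 (SE 0.34, adjusted p = 0.99). Klf1 and Itga2b overlapped between groups, at -1.82 (SE 0.98) and 0.85 (SE 0.31).

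The 6 skeletal muscle markers, led by Myh3, summed to 134, 99.2 and 241 CPM in WT and to 0.608, 4.73 and 2.23 CPM in KO. Of these, Acta1, Myh3 and Actc1 passed the adjusted threshold with edgeR, against 0.0719% of all genes tested, and were lower in KO. Myh3 and Actc1 had 0 counts in every KO library and were at least 115-fold and 45.8-fold lower, against a floor of 3 counts per library. Of the 6 muscle genes, 5 had every KO library below every WT library, against 6.14% of all genes tested, and Ckm overlapped. Their part in the values of the factors was not tested.

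**Figure D5:**
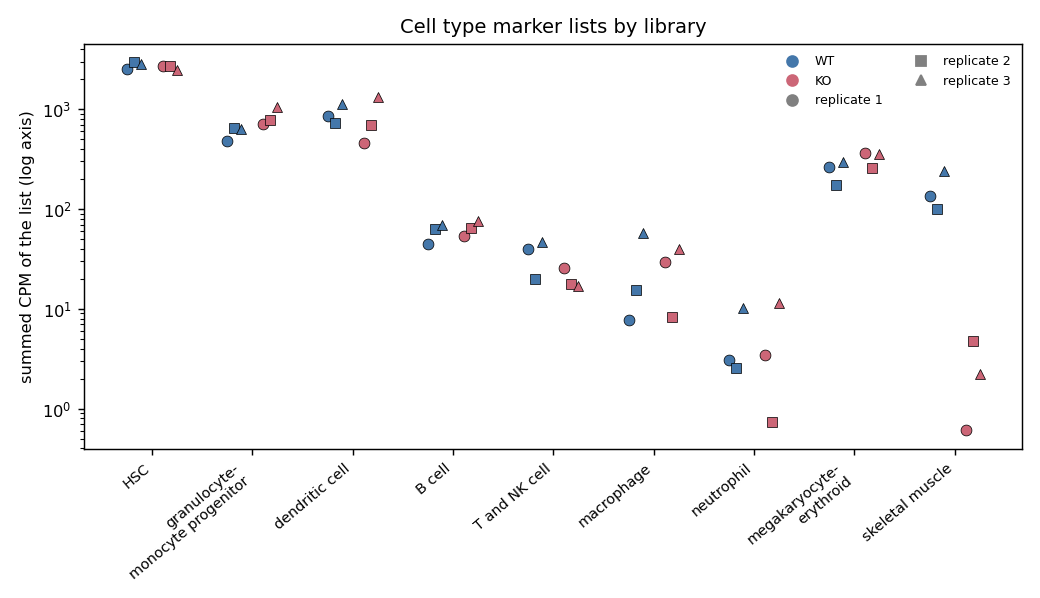
Summed CPM of each cell type marker list (vertical axis, logarithmic) in 3 WT (blue) and 3 KO (red) libraries, with circles, squares and triangles for replicates 1, 2 and 3. HSC markers are the most abundant list in every library, the sum of granulocyte-monocyte progenitor markers is higher in each KO library, and skeletal muscle markers lie between 99.2 and 241 CPM in WT and at most 4.73 CPM in KO.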

How the data were processed

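Bulk RNA-seq libraries of sorted HSCs (3 WT, 3 KO) were grouped by the sample labels. The authors deposited raw read counts per gene and FPKM values. TopHat, HTSeq and the build mm10 are named in the submitters' processing notes, while versions, annotation and strand setting are not given in the sources used here. The deposited FPKM are those counts over a fixed gene length and the library total, within 0.0041% for genes with at least 20 counts in every library. The methods name the TruSeq kit and the labels SMART-Seq v4.

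Counts were analysed with edgeR 4.0.16 in R 4.3.3, using filterByExpr, TMM scaling, robust dispersions, the quasi-likelihood test of KO against WT and Benjamini-Hochberg adjustment at 0.05 over 12513 genes. The SE is the size of the unshrunk log2 fold change divided by the square root of the F statistic. A fold against a group with 0 counts in each library is a lower bound against 3 counts per library. No 2 libraries of a group were alike within sampling noise (chi-square over its degrees of freedom at least 25.9). Alternatives were DESeq2 1.42.0, upper-quartile scaling, 2 other count filters, the replicate number as a block, limma 3.58.1 on log2(FPKM + 1) and log2(FPKM + 0.1), replicates 1 and 2 only, and each library left out.

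The factors and lists were chosen with earlier results of these data known. Genes named are Med23, the 8 factors, of each list those past the threshold, up to 4 with the largest difference among those with at least 10 counts on average and no overlap, and the most abundant in WT, the 5 most like Irf8, and the markers. Spib, Il12b, Nos2, Batf3, Id3, Cebpa, Fcgr1, Fli1, H19, Ddx4 and the genes that overlap a factor were named after their values were seen. A list gene that this rule takes is not reported here. Coordinates come from GENCODE M21 of GRCm38, which holds 34267 of the 34745 identifiers, and promoter windows from RefSeq.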

Additional observations from a re-analysis of the deposited data

How the results depend on the processing

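The number of genes past the adjusted threshold, 9 with edgeR, was 120 with DESeq2 and 15 with limma on log2(FPKM + 1) over genes averaging at least 1 FPKM, and ranged from 5 (without WT replicate 1) to 11 when each library was left out. With the replicate number as a block it was 5. Whether equal numbers mark a shared litter or day is not stated in the sources used here, and the main fit did not pair them. WT and KO libraries of equal number, each less its group mean, had correlations of 0.17, 0.032 and 0.17. Libraries of unequal number had at most 0.035, and WT replicate 2 did not correlate best with its own number. Of the 8 factors, 0 passed with edgeR and 1, Irf8, with DESeq2, from which nothing is read because they were chosen on this contrast. Of the list genes, 1 passed with edgeR and 2 with DESeq2 and with that limma fit, Itgam being added to Egr1. The cause was not tested. Neither count changed with the replicate block or with a library left out.

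Log2 fold changes of Irf8, Irf5, Id2, Spi1 and Tcf4 were positive under all 15 alternatives, from 1.89 to 3.76, 0.85 to 1.41, 0.84 to 1.49, 0.17 to 0.47 and 0.19 to 0.47. With the replicate block Irf8 was at 2.81. Gfi1 ranged from -0.36 to 0.32 and was positive in 2 alternatives, without the library labelled WT replicate 3 and with replicates 1 and 2 only. Zeb2 ranged from -0.06 to 0.44 and was negative in 1, without KO replicate 1. Egr1 passed in all 15. The list genes named because their groups did not overlap were run under the alternatives after the data had been seen, and no sign changed wherever a value could be fitted. Those named only as most abundant in WT were not run. Itgam passed with DESeq2 and with limma on log2(FPKM + 1) over genes averaging at least 1 FPKM, and not with the other limma fits. Depth limits what can be said of Irf4 and of the genes most like Irf8, which had few counts.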
